A study of Mus musculus with 2 samples.

Results

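The 29 genes described here encode proteins of DNA repair: break sensing and signalling (5 genes), homologous recombination (9), end joining (6), single-strand break and excision repair (6), and mismatch and crosslink repair (3). They were chosen by name from 32285 genes with a row in the count tables, and all 29 had a row. Immune cells from the spleen of C57BL/6 mice were profiled by droplet 3′ single-cell RNA sequencing (10x Chromium Next GEM v3.1), in 1 library from a WT spleen and 1 from a spleen with a conditional knockout of RPA1 (CKO). The series asks about the part RPA1 plays in T cells. Which Cre removed the gene, which exons were removed, and the age and sex of the mice are not given in the sources used here. Each genotype is a single library, so the genotypes were not tested against each other. All values describe these libraries, and their 95% intervals cover counting error only.

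DNA repair pathways divide the work by the kind of damage. Double-strand breaks are sensed by the MRE11-RAD50-NBN complex and the kinase ATM, which marks the histone variant H2AX around a break, and are then joined end to end or copied from a sister strand by homologous recombination, a route that needs a replicated genome. Lesions on a single strand go through PARP1, XRCC1 and the excision pathways, mismatches through MSH proteins, and crosslinks through the FANCD2-FANCI pair. Lymphocytes also depend on end joining to assemble their antigen receptor genes, and RPA coats the single-stranded DNA that arises during replication, recombination and excision repair.

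The libraries held 84240951 (WT) and 76910129 UMIs (CKO), with a median of 5355 and 4616 UMIs per barcode, and 36 barcodes were common to both. After filters and doublet removal 11285 WT and 11317 CKO cells remained. Cells were placed in classes by UMIs of lineage markers, and a level is the share of a gene in the UMIs summed over the class, times 1000000 (CPM). Ratios were limited to 7 classes, each of 50 or more cells per library: B cells (6512 WT and 8671 CKO), T cells (3389 and 696), their CD4 (1194 and 281) and CD8 subsets (1192 and 71), NK cells (346 and 845), monocytes or macrophages (109 and 161) and neutrophils (52 and 52). B markers outside the gate (Pax5, Cd22, Fcer2a, Blnk) summed to 1375 and 1396 CPM in B cells and to between 8.65 and 37.9 CPM in T, NK and monocyte classes. T markers outside the gate (5 genes, all detected in T cells) summed to 3523 and 3656 CPM in T cells and to 46.1 and 28.9 CPM in B cells. In NK cells they summed to 870 and 803 CPM, of which Lck gave 423 and 457 CPM. NK markers (4 genes) summed to 15922 and 16048 CPM in NK and 376 and 413 CPM in T cells. Neutrophil markers (3 genes) differed between the libraries in 2 other classes, at 32.2 and 1835 CPM in NK cells and 54.5 and 2957 CPM in monocytes or macrophages, and the part of this in the results for those classes was not tested. The CKO CD8 class of 71 cells held 1 cell rich in haemoglobin transcripts, the CKO NK class 2 cells and the CKO monocyte class 1 cell rich in neutrophil transcripts. A member was measured in a comparison when its counts summed to at least 20, and a 1.5-fold difference was the fixed size for a call.

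Rpa1, the targeted gene, stood at 46.8 CPM in WT and 36.2 CPM in CKO CD4 T cells (379 and 61 counts), a ratio of 0.773 (0.580 to 1.01). Over all T cells Rpa1 was lower in CKO, at 43.2 CPM (40.6 to 45.9) in WT and 35.6 CPM (30.2 to 41.8) in CKO, on 1045 and 153 counts. The makeup of this class differed: CD8 cells were 1192 of 3389 WT and 71 of 696 CKO T cells, and gamma delta cells 18 and 66. The part of makeup in the Rpa1 value was not tested. CD8 T cells held 39.6 and 38.0 CPM, on 380 and 19 counts. In B cells it measured 34.9 and 33.0 CPM, a ratio of 0.944 (0.875 to 1.02). Reads of 3′ tags come mostly from the end of a transcript, and a tag outside the removed part checks nothing, so these values do not show how many cells had lost the gene.

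Summed over the 29 genes, repair transcripts made up a like share of the transcriptome in both libraries within each lymphocyte class. The sum was 817 CPM (WT) and 854 CPM (CKO) in B cells, 630 and 644 in CD4 T cells, 572 and 580 in CD8 T cells, and 664 and 680 in NK cells. Monocytes or macrophages held 558 and 494, and neutrophils held the lowest sums, at 293 and 373. The plot of 6 genes across classes shows members that differed between them.

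**Figure D1:**
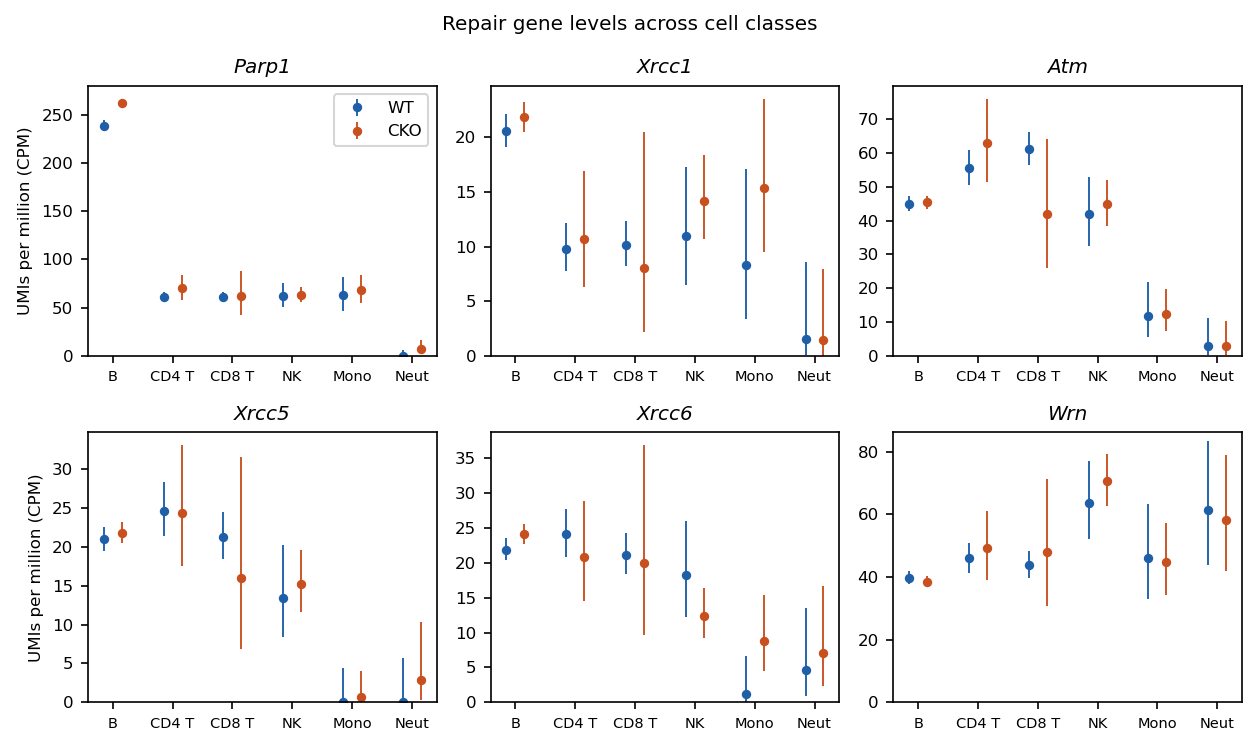
Level of 6 repair genes (vertical axis, CPM, from 0) in 6 cell classes of the WT (blue) and CKO (orange) libraries; Mono is monocyte or macrophage and Neut is neutrophil, and bars are exact Poisson 95% intervals for counting error. Parp1 is 239 and 262 CPM in B cells and between 60.8 and 70.0 CPM in CD4 T, CD8 T, NK and monocyte classes, whereas Xrcc5 is at 0 and 0.732 CPM in monocytes or macrophages.

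Parp1 (chromosome 1, 180568924 to 180601254, plus strand, GRCm38), whose product binds single-strand breaks and builds poly(ADP-ribose) chains, was higher in B cells than in each of the other 6 classes. It measured 239 CPM in WT and 262 CPM in CKO B cells, against 61.1 and 72.5 CPM in T cells, 62.6 and 63.0 CPM in NK cells and 62.8 and 68.1 CPM in monocytes or macrophages. B cells were thus 3.91-fold (3.70 to 4.13) above T cells in the WT library and 3.61-fold (3.23 to 4.06) in the CKO library, and 3.95-fold and 3.66-fold with cycling cells left out. The intervals of the T, NK and monocyte levels overlapped in each library. After each cell was thinned to 1000 UMIs, 21.7% of WT and 23.3% of CKO B cells held a Parp1 UMI, against 6.29% and 6.76% of CD4 T cells (64.2%, 66.7%, 31.7% and 33.1% before thinning). In neutrophils, which had 652178 and 703256 UMIs, 0 and 5 Parp1 counts were seen.

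Xrcc1, the scaffold that PARP1 activity recruits to single-strand breaks, was also higher in B cells, at 20.6 and 21.8 CPM in B cells against 9.39 and 10.3 CPM in T cells, 2.19-fold (1.89 to 2.56) and 2.13-fold (1.57 to 2.95). Brca1, Brca2, Rad54l and Rad51c, all of homologous recombination, were the other members at least 1.5-fold higher in B than in T cells in both libraries. That made 6 of 29 members (20.7%), where 17.8% of all measured genes were so, and 0 members at least 1.5-fold lower, where 13.1% of all genes were. Against NK cells, 2 members were higher in B cells (Parp1 and Xrcc1; background 13.9%) and 2 were lower (background 19.0%). The lower ones were the helicases Blm, at 12.4 and 11.7 CPM in B against 23.1 and 21.8 CPM in NK cells, and Wrn, at 39.9 and 38.6 CPM against 63.8 and 70.6 CPM. T cells were higher than NK cells in Xrcc5 (1.70-fold and 1.52-fold; 1 of 25 measured members, background 9.94%) and lower in Brca1 (0.297 and 0.443; background 19.4%). Between CD4 and CD8 T cells 0 of 19 measured members differed by 1.5-fold in both libraries, where 2.75% of all genes were higher and 2.0% lower.

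Xrcc5 of the Ku pair was nearly absent from the counts of monocytes or macrophages. Xrcc5, which encodes Ku80, one of the proteins that hold a broken end for joining, gave 0 of 843914 UMIs in WT and 1 of 1365570 UMIs in CKO monocytes or macrophages. T cells measured 22.7 and 23.1 CPM, and B cells 21.0 and 21.8 CPM. With the WT count of 0 set to a floor of 3 counts in the class, B cells were 5.90-fold higher, a value that depends on the floor. In the CKO library the ratio was 29.8 (5.33 to 1177). Xrcc6, which encodes its partner Ku70, gave 1 and 12 counts in monocytes or macrophages (1.18 and 8.79 CPM), and B cells measured 21.9 and 24.0 CPM. NK cells held 13.4 and 15.2 CPM of Xrcc5 and 18.2 and 12.4 CPM of Xrcc6, and in the CKO library the Xrcc6 intervals of NK cells (9.18 to 16.4) and monocytes (4.54 to 15.4) overlapped. Atm, the break-activated kinase, stood at 11.8 and 12.4 CPM in monocytes or macrophages against 44.9 and 45.4 CPM in B cells, 3.79-fold (2.06 to 7.92) and 3.65-fold (2.27 to 6.28). Lig4, the ligase that seals joined ends, gave 1 count in each monocyte library. In all, 9 of 29 members (31.0%) were at least 1.5-fold higher in B cells than in monocytes or macrophages in both libraries, where 16.6% of all genes were. The other 5 were Mre11a, Rad50, Prkdc, Parp1 and Msh6. Of the 29, 4 were lower in B cells (Rad54l, Xrcc2, Fancd2 and Fanci; background 19.7%), each on at most 8 counts in a monocyte library, and with cycling cells left out 12 of 28 were higher and 0 lower. Against T cells the same comparison gave 8 of 23 measured members higher in T cells (34.8%, background 19.2%) and 2 lower (Brca2 and H2afx, background 23.3%), and with cycling cells left out 9 of 21 were higher and 0 lower. Neutrophils gave less: 15 of 29 members (51.7%) were higher in B cells than in neutrophils, but so were 43.3% of all genes, and 3 (Brca1, Nhej1 and Wrn) were lower (background 11.5%). With cycling cells left out 19 of 28 were higher and 0 lower. No share over all genes was taken for the counts without cycling cells, here or against B and T cells above. Those counts were therefore not set against a background. Wrn was at 61.3 and 58.3 CPM in neutrophils.

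**Figure D2:**
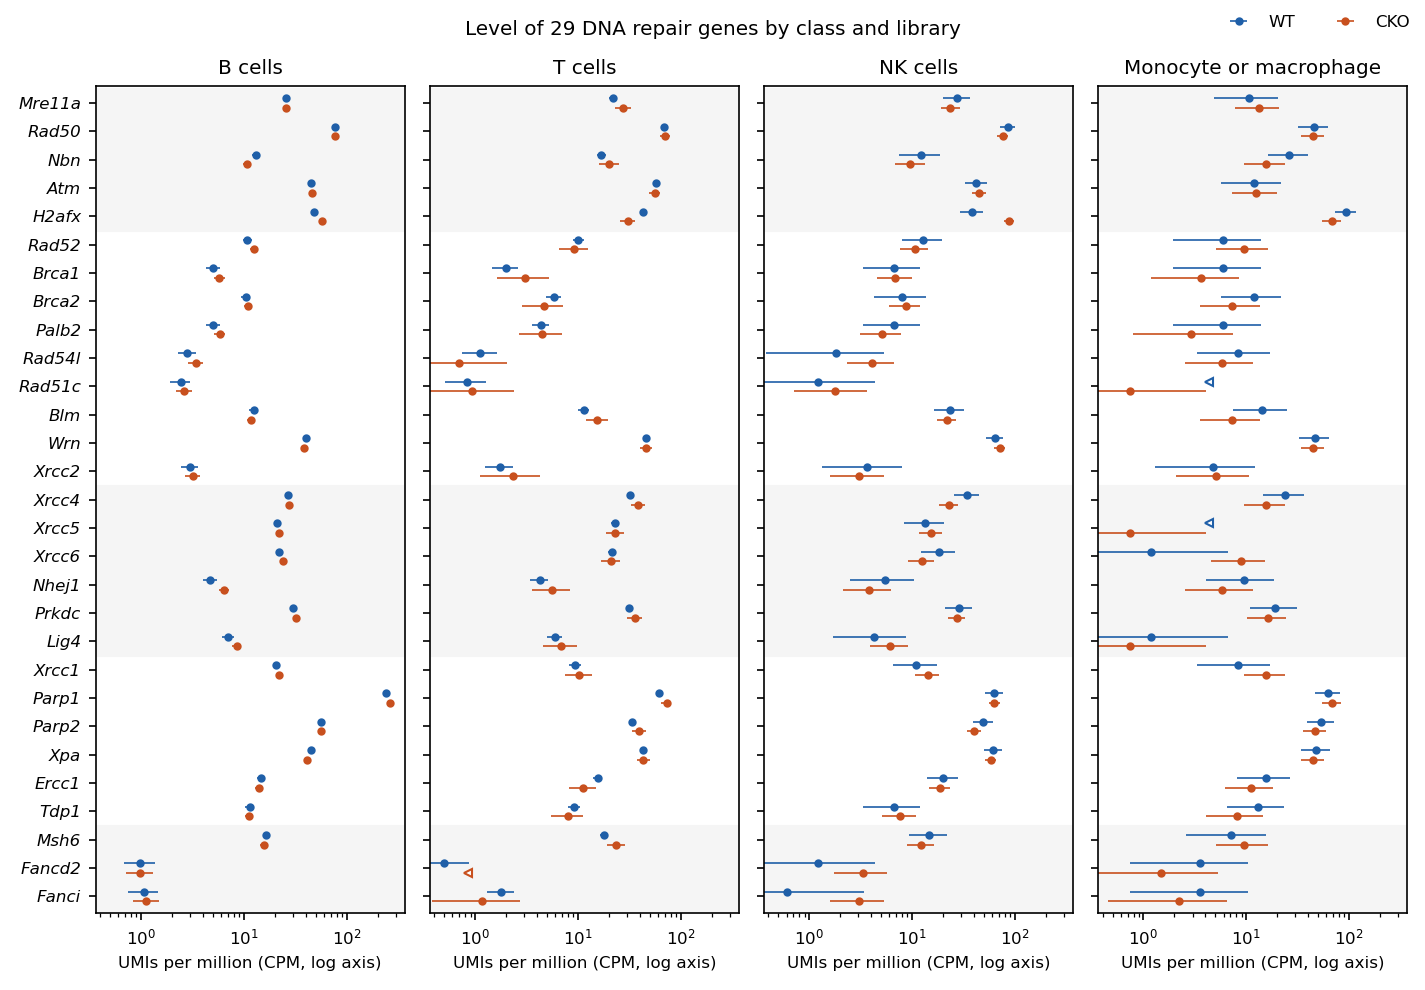
Level of each of the 29 members (horizontal log axis, CPM) in B, T, NK and monocyte or macrophage classes of the WT (blue) and CKO (orange) libraries, grouped by role in shaded bands. Bars are exact Poisson 95% intervals, some of which run past the left edge, and open triangles mark the upper limit where the count is 0. Parp1 lies farther right in B cells, at 239 and 262 CPM, than in the other 3 classes, and H2afx in NK cells is at 38.3 and 87.1 CPM.

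The comparison of genotypes was most precise in B cells, where all 29 members were measured. Of these, 0 differed by 1.5-fold, where 7.24% of all 12941 measured genes did. Ratios of CKO over WT ran from 0.814 to 1.37, and the median log2 ratio (pseudocount 1 CPM) was 0.053, against 0.035 over all genes. In 8 members (27.6%) the interval lay clear of 1, a share near the 26.3% of all measured genes. The ratio farthest from 1 was that of Nhej1.

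Among the genes of break sensing, levels in B cells are given for the WT and then the CKO library. Mre11a, the nuclease of the sensing complex, measured 25.7 and 25.4 CPM, and Rad50, its ATPase, 76.0 and 76.3 CPM. Nbn, the subunit that brings ATM to the break, was lower in CKO, at 13.0 and 10.6 CPM, a ratio of 0.814 (0.714 to 0.927), although the complex's other two subunits were level. H2afx, which encodes the histone variant marked by ATM, measured 48.2 and 57.7 CPM, 1.20 (1.12 to 1.27). Without cycling cells H2afx was level in B cells, at 37.3 and 37.9 CPM, while Nbn kept its ratio at 0.811 (0.708 to 0.928). Within cycling B cells, defined below, H2afx was higher in CKO, at 381 and 514 CPM on 420 and 968 counts.

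The 9 homologous recombination genes had ratios between 0.942 and 1.20 in B cells. Rad52, a single-strand annealing protein, measured 10.8 and 12.4 CPM, a ratio of 1.15 (1.004 to 1.31). Brca1, which promotes resection of broken ends, was at 5.04 and 5.76 CPM, Palb2, its link to BRCA2, at 5.01 and 5.81 CPM, and Brca2, a mediator of recombination, at 10.4 and 10.9 CPM. Rad51c and Xrcc2, which both act in recombination, measured 2.42 and 2.63 CPM, and 2.97 and 3.20 CPM. Rad54l, a motor that helps strand invasion, was at 2.82 and 3.40 CPM. Blm, a helicase that dissolves recombination intermediates, stood at 12.4 and 11.7 CPM. None of these intervals except that of Rad52 was clear of 1.

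Of the 6 end joining genes, 3 had intervals clear of 1 in B cells and were higher in the CKO library, and 0 of the 6 reached 1.5-fold. Over all 29 members 6 were higher with an interval clear of 1, as were 18.7% of all measured genes. Nhej1, which encodes the filament protein XLF, measured 4.67 and 6.40 CPM, a ratio of 1.37 (1.13 to 1.67) on 162 and 290 counts. Lig4 measured 7.03 and 8.48 CPM, 1.21 (1.03 to 1.42), and Xrcc6 measured 21.9 and 24.0 CPM, 1.10 (1.002 to 1.21). Xrcc4, the partner of LIG4, was at 26.8 and 27.7 CPM, and Prkdc, the kinase that Ku recruits, at 30.1 and 32.2 CPM. With cycling cells left out Nhej1 stood at 1.36 (1.11 to 1.66) and Lig4 at 1.19 (1.01 to 1.42), and the Xrcc6 interval then included 1, at 1.06 (0.964 to 1.17).

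Single-strand and excision repair genes had ratios between 0.912 and 1.10 in B cells. Parp1 was 1.10 times as high in CKO (1.06 to 1.13), on 8292 and 11853 counts. Parp2, its relative, measured 56.5 and 56.1 CPM. Xpa, which verifies lesions in nucleotide excision repair, was at 44.9 and 41.0 CPM, a ratio of 0.912 (0.852 to 0.976). Ercc1, part of the nuclease that cuts beside a lesion, measured 14.8 and 14.0 CPM, and Tdp1, which frees trapped topoisomerase ends, 11.3 CPM in both. The mismatch gene Msh6 was at 16.5 and 15.6 CPM, and the crosslink genes Fancd2 and Fanci at 0.979 and 0.972 CPM, and 1.07 and 1.13 CPM.

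**Figure D3:**
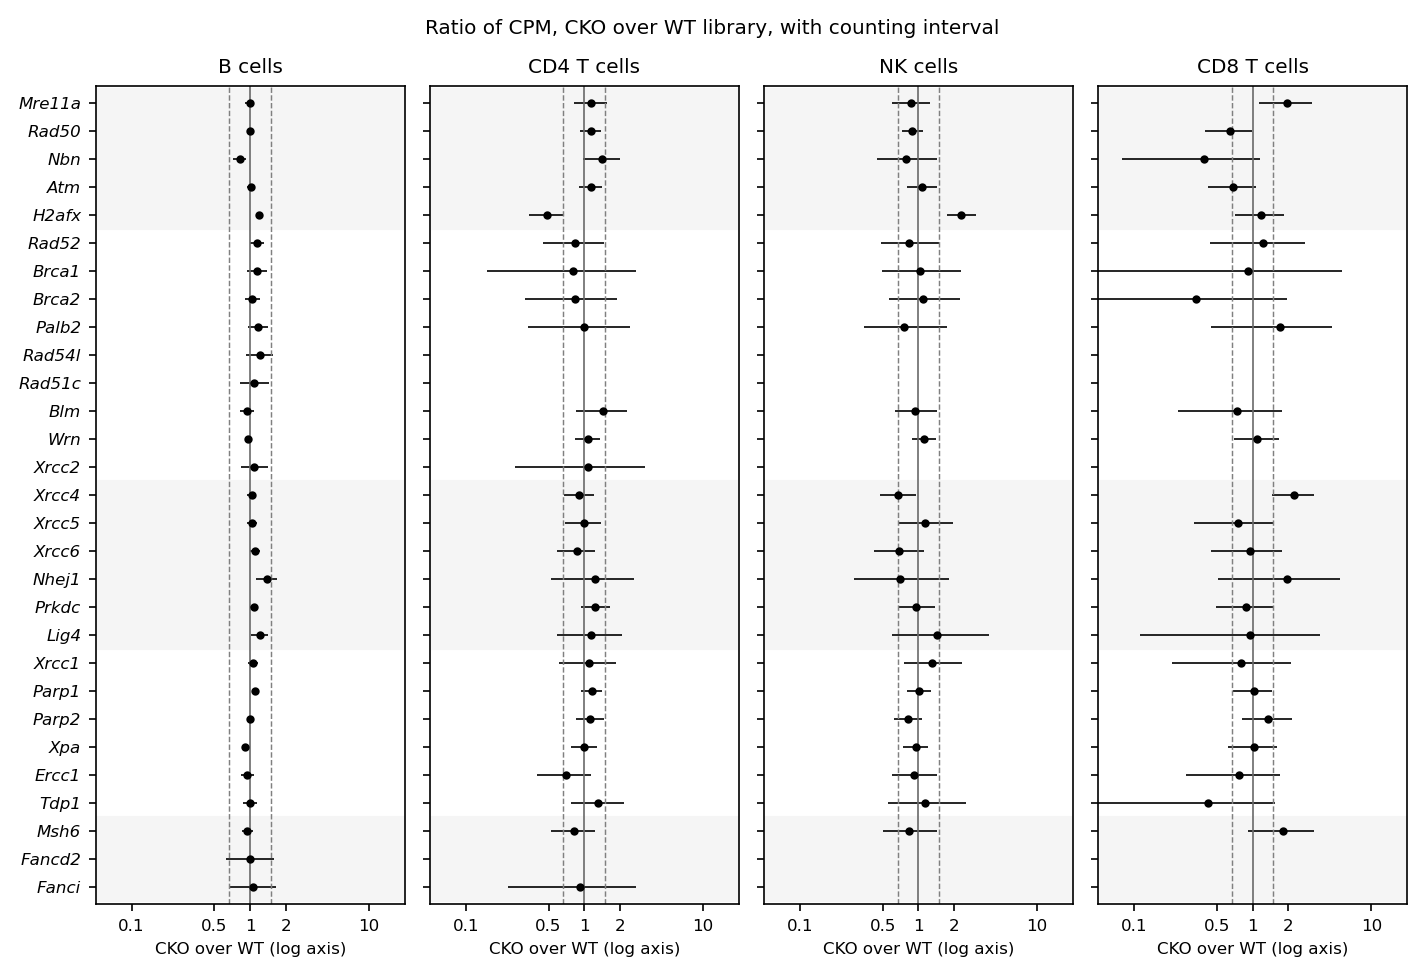
CKO over WT ratio of CPM (horizontal log axis) for each measured member in B, CD4 T, NK and CD8 T cells, with exact conditional 95% intervals, a solid line at 1 and dashed lines at 1.5-fold either way; members with under 20 counts have no point, and some intervals run past the axis. All B cell points lie within the dashed lines, and H2afx lies below them in CD4 T cells at 0.486 and above them in NK cells at 2.28.

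CD4 T cells had 1 member past 1.5-fold. Of 26 measured members 1 was at least 1.5-fold lower in the CKO library (background 9.22%) and 0 were higher (background 6.36%). The median log2 ratio was 0.081, against 0.016 over 10008 genes. Rad51c, Rad54l and Fancd2 had 10 or fewer counts in all. The lower member was H2afx (chromosome 9, 44334694 to 44336077, plus strand), at 50.1 CPM in WT and 24.3 CPM in CKO cells (405 and 41 counts), a ratio of 0.486 (0.343 to 0.671). Of the 405 WT counts 144 came from 17 cycling cells, and the CKO class held 1 such cell. Without cycling cells H2afx measured 33.8 and 22.7 CPM, a ratio of 0.673 (0.466 to 0.948), which is short of 1.5-fold. The thinned share of CD4 T cells with an H2afx UMI was 3.86% (2.84 to 5.11) in WT and 2.85% (1.24 to 5.53) in CKO. Makeup differed along with it: of the helper markers outside the gate Cd40lg measured 51.9 and 45.1 CPM and Izumo1r 142 and 61.1 CPM, and of the cytotoxic or CD8 markers Nkg7 measured 42.0 and 16.6 CPM and Dapl1 328 and 144 CPM. The part of these differences in the H2afx value was not tested. An antisense gene, Gm44335, overlaps the 3′ end of H2afx, and whether the counting used strand is not given in the sources used here.

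The other members of CD4 T cells had intervals that included 1. Among break sensing genes Mre11a measured 25.5 and 29.1 CPM, Rad50 67.1 and 75.9 CPM, and Atm 55.6 and 62.9 CPM. Nbn, lower in CKO B cells, was at 18.0 and 25.5 CPM in CD4 T cells, a ratio of 1.41 (0.982 to 1.998). In homologous recombination, Blm had the highest ratio, 1.43 (0.859 to 2.31), from 9.52 and 13.6 CPM, whereas Wrn, the other helicase, measured 46.0 and 49.2 CPM. Rad52 was at 10.6 and 8.90 CPM, Brca1 at 2.22 and 1.78 CPM, Brca2 at 4.94 and 4.15 CPM, Palb2 at 3.58 and 3.56 CPM and Xrcc2 at 2.22 and 2.37 CPM, on 3 to 15 CKO counts each.

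End joining genes, which lymphocytes need for receptor assembly, were close between the libraries in CD4 T cells. Xrcc5 measured 24.6 and 24.3 CPM and Xrcc6 24.1 and 20.8 CPM. Xrcc4 stood at 38.1 and 34.4 CPM, Prkdc at 32.0 and 39.7 CPM, Lig4 at 7.29 and 8.31 CPM and Nhej1 at 4.33 and 5.34 CPM. For Nhej1 the ratio of 1.23 had an interval of 0.522 to 2.62, so the B cell difference of 1.37 was not detectable at this depth. In excision repair, Parp1 was at 60.8 and 70.0 CPM, Parp2 at 35.8 and 40.3 CPM, Xrcc1 at 9.76 and 10.7 CPM and Xpa at 47.1 and 46.9 CPM. Ercc1, at 15.3 and 10.7 CPM, had a ratio of 0.697 (0.3998 to 1.15), and Tdp1, at 9.52 and 12.5 CPM, one of 1.31 (0.767 to 2.14). Msh6 was at 19.5 and 16.0 CPM, and Fanci at 2.60 and 2.37 CPM.

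In CD8 T cells the small CKO class of 71 cells set the precision. Of 24 measured members 9 passed 1.5-fold in either direction (background 24.8%), 5 higher (background 12.5%) and 4 lower (background 12.3%), with a median log2 ratio of −0.063 against 0.021 over all genes. Only 3 of them had intervals clear of 1. Xrcc4 measured 26.0 and 58.0 CPM (249 and 29 counts), a ratio of 2.23 (1.47 to 3.29). Mre11a was at 18.6 and 36.0 CPM (178 and 18 counts), 1.94 (1.12 to 3.16), and Rad50, which forms a complex with MRE11, was lower, at 68.5 and 44.0 CPM (657 and 22 counts), 0.642 (0.3998 to 0.981). With the haemoglobin-rich cell left out the ratios were 2.30, 1.78 and 0.662. Makeup of the CD8 class differed too: of the CD8 markers outside the gate Nkg7 measured 654 and 698 CPM and Dapl1 527 and 174 CPM. Of the NK markers, Eomes measured 65.8 and 22.0 CPM, Gzma 37.5 and 82.0 CPM and Klrk1 14.2 and 44.0 CPM. The part of these differences in the CD8 ratios was not tested. In CD4 T cells Xrcc4 had a ratio of 0.904 (0.671 to 1.20). An antisense gene, Gm4117, overlaps the 3′ end of Xrcc4 (chromosome 13, 89774027 to 90089608, minus strand). Over all T cells 1 of 28 measured members was higher by 1.5-fold (background 7.01%) and 2 were lower (background 6.49%), none with an interval clear of 1.

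NK cells, more numerous in the CKO library, had 1 of 24 measured members past 1.5-fold (background 11.8% in either direction), again H2afx, which was higher (background 7.02%), and 0 were lower (background 4.8%). It measured 38.3 CPM in WT and 87.1 CPM in CKO NK cells (63 and 344 counts), a ratio of 2.28 (1.74 to 3.03). Of the 344 CKO counts, 198 came from 22 cycling cells, in which H2afx stood at 611 CPM, and the WT class held 3 cycling cells with 1 count. Without cycling cells the levels were 38.5 and 40.3 CPM, a ratio of 1.05 (0.771 to 1.43), and with each cell weighted equally the ratio was 1.36, under 1.5-fold. Xrcc4 was the other member of the class with an interval clear of 1, at 34.0 and 22.8 CPM, a ratio of 0.670 (0.475 to 0.953). With cycling cells left out it stood at 0.662 (0.465 to 0.949), just past 1.5-fold. Monocytes or macrophages gave 6 of 16 measured members past 1.5-fold (background 16.1%), 1 higher (background 7.45%) and 5 lower (background 8.69%), with no interval clear of 1 and a median log2 ratio of −0.21 against −0.0081 over all genes. Under stricter gates, which left 7 measured members, that median was 0.067. In neutrophils 3 of 6 measured members passed (background 23.0%), with a median of 0.18 against 0.024. H2afx, at 65.9 and 109 CPM, was the one of the 3 with an interval clear of 1 (1.66, 1.13 to 2.47). Non-cycling neutrophils held 2 H2afx counts in each library, so nearly all of that signal was in 8 WT and 12 CKO cycling cells.

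**Figure D4:**
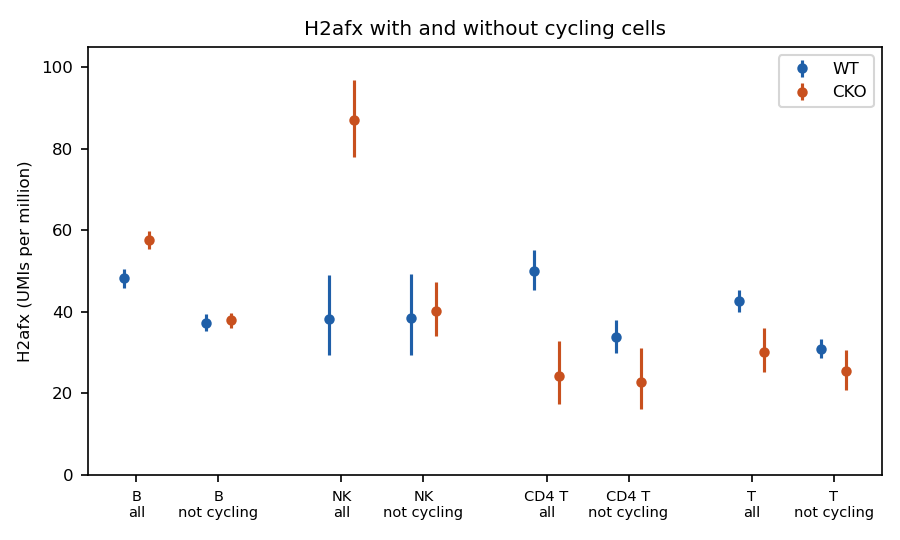
H2afx level (vertical axis, CPM, from 0) in WT (blue) and CKO (orange) B, NK, CD4 T and all T cells, over all cells and with cycling cells left out; bars are exact Poisson 95% intervals. The NK pair of 38.3 and 87.1 CPM becomes 38.5 and 40.3 CPM, the B pair of 48.2 and 57.7 CPM becomes 37.3 and 37.9 CPM, and in CD4 T cells the CKO point stays below the WT point.

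Ratios between cycling and other B cells reached farther from 1 than those between genotypes, and did so in each library. Cells were called cycling when they had UMIs of at least 3 of 20 mitosis and S phase genes, none of them a member. This marked 68 of 6512 WT and 130 of 8671 CKO B cells (1.04% and 1.499%), and 0.370% and 0.739% after thinning. Cycling B cells had a median of 14330 and 12956 UMIs, against 4529 and 4251 in the rest. In both libraries 6 of 29 members (20.7%) were at least 3-fold higher in cycling B cells, where 3.59% of all genes were, and 0 were 3-fold lower (background 0.677%). The intervals of 16 members (55.2%) were clear of 1 in the same direction in both libraries, 15 higher and 1 lower, where those of 25.5% of all genes were.

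Homologous recombination and crosslink repair supplied 5 of the 6. Brca1 (chromosome 11, 101488764 to 101551955, minus strand) measured 43.5 CPM in cycling and 3.78 CPM in other WT B cells, 11.5-fold (8.09 to 16.2), and 48.8 and 3.89 CPM in the CKO library, 12.5-fold (9.62 to 16.3). Brca2 was 5.11-fold and 4.40-fold higher, and Rad54l 18.5-fold and 11.4-fold. Fancd2, the protein that is monoubiquitinated at crosslinks, had the highest ratios, 30.5-fold (14.6 to 63.5) and 36.6-fold (19.2 to 71.5), although on 34 and 44 counts. Cycling cells gave 17 of the 34 and 27 of the 44 counts while holding 3.18% and 4.16% of all B cell UMIs. Fanci, its partner, was 5.90-fold (2.01 to 14.4) and 18.9-fold (10.4 to 34.1) higher. The sixth was H2afx, at 381 and 37.3 CPM in WT and 514 and 37.9 CPM in CKO B cells, 10.2-fold (9.11 to 11.4) and 13.5-fold (12.5 to 14.7). With the cells called at full depth and then thinned, so that the call itself kept its dependence on depth, Brca1 was 17.1-fold and 18.5-fold higher, Brca2 5.43-fold and 3.49-fold, and H2afx 12.3-fold and 13.8-fold, and Rad54l, Fancd2 and Fanci had too few counts. In T cells 2 of 22 measured members were at least 3-fold higher in cycling cells in both libraries, from 47 WT and 8 CKO cycling cells. They were H2afx, 11.9-fold and 10.2-fold, and Brca2, 5.53-fold and 20.4-fold, the latter on 23 and 6 counts in cycling cells. In NK cells, with 3 and 22 cycling cells, 0 of 17 were higher and 1 was lower (Rad52, on 0 and 1 counts in cycling cells). No share over all genes was taken for T and NK cells.

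**Figure D5:**
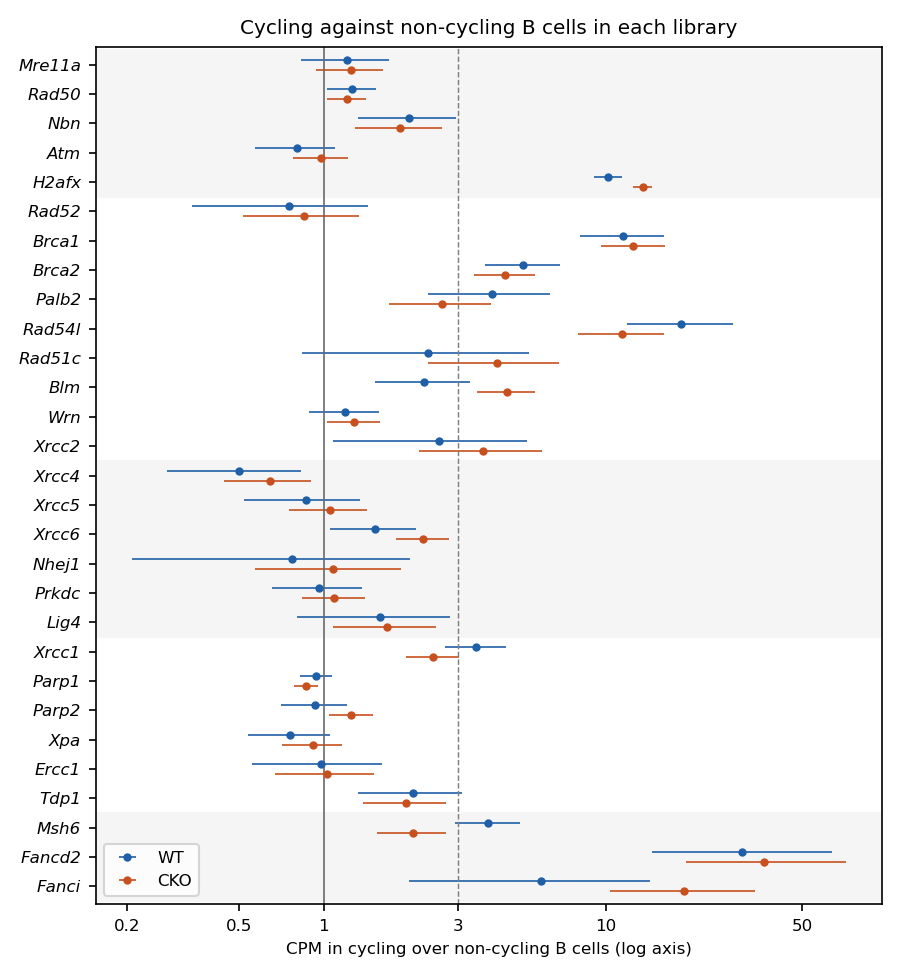
Ratio of CPM in cycling over non-cycling B cells (horizontal log axis) for each member in the WT (blue) and CKO (orange) libraries, with exact conditional 95% intervals, a solid line at 1 and a dashed line at 3. Brca1, Brca2, Rad54l, Fancd2, Fanci and H2afx lie right of the dashed line in both libraries, whereas Parp1 (0.940 and 0.867) and Xrcc4 (0.499 and 0.643) do not exceed 1.

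Other members were higher by less, or by 3-fold in one library only. Palb2 was 3.96-fold and 2.64-fold higher in cycling B cells, Msh6 3.84-fold and 2.07-fold, Xrcc1 3.47-fold and 2.45-fold, Blm 2.28-fold and 4.45-fold, Xrcc2 2.57-fold and 3.69-fold, and Rad51c 2.35-fold and 4.11-fold. Nbn (2.01-fold and 1.86-fold) and Tdp1 (2.07-fold and 1.96-fold) were also higher, with intervals clear of 1. Several end joining genes were near the level of other B cells: Xrcc5 at 0.861 and 1.05, Prkdc at 0.963 and 1.09, and Nhej1 at 0.772 and 1.08. Xrcc4 was lower in cycling cells, at 0.499 (0.278 to 0.827) and 0.643 (0.443 to 0.903), and Xrcc6 was higher, at 1.52 (1.06 to 2.12) and 2.25 (1.81 to 2.78). Lig4 gave 1.58 (0.803 to 2.81), an interval that includes 1, and 1.67 (1.08 to 2.49). Of the sensors, Atm gave 0.802 and 0.980, Mre11a 1.21 and 1.24, and Rad50 1.26 and 1.21. Rad52 gave 0.750 and 0.852, Wrn 1.19 and 1.28, and Parp2 0.930 and 1.25. The excision genes Xpa and Ercc1 gave 0.762 and 0.917, and 0.982 and 1.02. Parp1, the member that distinguished B cells, was at 225 CPM in cycling and 239 CPM in other WT B cells.

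Between genotypes within cycling B cells, 5 of 28 measured members passed 1.5-fold (background 18.0%), 3 of them with intervals clear of 1. Msh6, which recognises base mismatches, was lower in CKO, at 58.1 and 30.8 CPM, a ratio of 0.530 (0.365 to 0.769). Blm was higher, at 27.2 and 45.7 CPM, 1.68 (1.10 to 2.63), and so was Xrcc6, at 32.7 and 51.5 CPM, 1.58 (1.07 to 2.38). H2afx was higher in CKO by less than 1.5-fold, at 381 and 514 CPM (420 and 968 counts). In non-cycling B cells 0 of 29 passed (background 6.53%).

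Promoter sequences were examined because 6 members were higher together in cycling cells. RefSeq (GRCm38.p6) gave a promoter for 22 of the 29 members, 4 of the 6 among them. Within 250 bases before the start, on both strands, matches were sought to 3 motifs known from cell cycle promoters: the E2F site (TTTGGCGC, TTTCGCGC, TTTCCCGC or TTTGCCGC), the CHR element (TTTGAA or TTCGAA) and the CCAAT box. No motif contains another. An E2F match was present in 2 of 22 members, against 2.16% of 27025 genes: Brca2, and Xrcc6, an end joining gene whose cycling ratios were above 1 with intervals clear of it in both libraries. A CCAAT match was present in 9 of 22 members, a share near the 37.5% of genes, and a CHR match in 1 of 22, Tdp1, against 19.6%. Of the 4 members higher in cycling B cells, 1 held an E2F, 0 a CHR and 2 a CCAAT match. Of the 18 others, 1, 1 and 7 did, and the difference was not tested. The windows below show both E2F matches and, as an example chosen after its values were seen, the CCAAT match of Brca1, in capitals and 5′ to 3′ along the gene's own strand.
Brca2 (chr5:150522442-150522471, plus, E2F): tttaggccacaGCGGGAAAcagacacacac
Xrcc6 (chr15:82016312-82016341, plus, E2F): agggggtggaaGCGGGAAAtgcgagtgggc
Brca1 (chr11:101552024-101552053, minus, CCAAT): aagactaggtagCCAATcgcaaacccagaa
Both E2F matches are the same 8 letters, TTTCCCGC read on the opposite strand, 168 bases before the Brca2 start and 46 before that of Xrcc6, whose RefSeq start lies inside the GENCODE gene. A match describes the letters only.

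A wider list of 82 other repair genes, of which 81 had a row, put the members in context. In B cells 3 of 80 measured genes were at least 1.5-fold higher in CKO (background 3.96%) and 0 lower (background 3.28%), with a median log2 ratio of 0.043. All 3 had intervals clear of 1: Brip1, the helicase that binds BRCA1, at 1.90 (1.43 to 2.55), Rad54b, a relative of Rad54l, at 1.81 (1.12 to 3.01), and Neil3, a glycosylase, at 3.16 (2.22 to 4.61). All 3 were also among 17 of 80 genes at least 3-fold higher in cycling B cells in both libraries (background 3.59%), where 0 were 3-fold lower. Brip1 was 35.3-fold and 35.8-fold higher there, and Lig1, the replication ligase, 12.3-fold and 13.9-fold. Cycling B cells (68 WT and 130 CKO) gave 37 and 104 counts of Brip1, 15 and 47 of Rad54b and 34 and 151 of Neil3. Other B cells gave 32 and 67, 10 and 12, and 5 and 10 counts. The part of cycling in the genotype ratios of these genes was not tested. In CD4 T cells 4 of 69 measured genes were higher in CKO (background 6.36%) and 8 lower (background 9.22%), with a median of 0.031. Those clear of 1 were Bap1 (1.63, 1.10 to 2.36), Polm (1.85, 1.08 to 3.08) and Nthl1 (3.03, 1.34 to 6.58), which were higher, and Trp53bp1, the mediator that favours end joining (0.655, 0.421 to 0.982), which was lower. In CD8 T cells 10 of 69 were higher (background 12.5%) and 11 lower (background 12.3%), and Mdc1, the adaptor that binds phosphorylated H2AX, had the ratio farthest above 1 with an interval clear of it, 2.43 (1.57 to 3.64). In NK cells 8 of 68 were higher (background 7.02%) and 6 lower (background 4.8%). These shares lie near the background in B, CD4 T and CD8 T cells. In NK cells Rad51ap1 gave 0 and 26 counts and Neil3 0 and 24 counts in WT and CKO cells, alongside the 3 and 22 cycling cells.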

How the data were processed

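The authors deposited whole UMI counts per gene and barcode, not normalized. Per the submitters' processing notes mm10, Cell Ranger 5.0.0 and Seurat 4.0.3 were used, while Cell Ranger 6.0.2 is named in the matrix headers. Cells with 200 to 6000 genes and under 10% mitochondrial UMIs were kept. Doublets were scored with Scrublet (scanpy 1.11.5) and removed at the quantile of the expected rate of 0.8% per 1000 cells, which took 1394 WT (11.0%) and 1293 CKO cells (10.3%). Classes needed at least 3 UMIs of their own lineage markers (2 for T and NK cells) and at most 1 of any other lineage (2 of B). Plasma cells had no limit on B markers. Cells of no class (7.20% and 7.32%) entered no class value. CPM carries exact Poisson intervals, ratios exact conditional binomial intervals and shares Clopper-Pearson intervals, all at 95%. Only the ratio intervals were tried on simulated data. Those data were Poisson counts for B cells, so spread between cells was not covered. A count of 0 was set to 3 counts for calls. Members were named in B and CD4 T cells whatever their ratio at 20 or more counts, elsewhere, over all cells of a class, when past 1.5-fold with an interval clear of 1. Within cycling cells, Blm (2.89) and Rad50 (2.51) in T cells and H2afx (22.8) in NK cells also passed. So did Parp2 (0.370) and H2afx (0.535) in monocytes or macrophages, from 4 WT and 7 CKO cycling cells. Members, lists and gates were chosen with earlier results of these data known. Positions come from GENCODE M21. Scripts ran under Python 3.11.15 with scipy 1.17.1, numpy 2.4.6, matplotlib 3.10.9 and pandas 2.3.3. Alternatives were other cell filters, gates, doublet treatment, minimum counts, pseudocount, scaling and cycling cells left out, and, chosen after seeing the data, cells rich in erythroid or neutrophil transcripts left out. Some items are not reported here.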

Additional observations from a re-analysis of the deposited data

Results flagged for a closer look

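H2afx, which encodes the histone variant marked at DNA breaks, was lower in the CKO than in the WT library in CD4 T cells (ratio 0.486) and higher in NK cells (2.28) and neutrophils (1.66), so the direction differed between classes. The difference between classes was not tested, since each genotype had 1 library. With cycling cells left out the ratios were 0.673 in CD4 T cells, 1.05 in NK cells and 1.03 in neutrophils, the last on 2 counts in each library. With each cell weighted equally the NK ratio was 1.36, under 1.5-fold.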

How the results depend on the processing

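No paired analysis was possible because each genotype had 1 library, and no replicate could be left out. Under stricter gates the monocyte or macrophage median log2 ratio was 0.067 over 7 members, against −0.21 as reported. Shares of cells with a UMI rise without thinning: for Parp1 to 64.2% and 66.7% in B cells and to 31.7% and 33.1% in CD4 T cells, and for H2afx to 19.7% and 12.5% in CD4 T cells and 16.8% and 17.5% in NK cells (WT and CKO). With no minimum count the CD4 T median was −0.0068, and with no cell filter the neutrophil median was −0.15 over 7 members. With each cell weighted equally, H2afx gave 1.11 in B and 1.36 in NK cells. The count of 6 members higher in cycling B cells was 9 with at least 5 cycling genes required and 5 after thinning, which left 25 members measured, 3 of the 6 too sparse to measure and the other 3 (Brca1, Brca2 and H2afx) still counted. Depth limited CD8 T cells, monocytes and neutrophils most.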
